A study of Homo sapiens with 12 samples.

Results

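The BCL2 family genes BCL2, BCL2L1, BCL2A1, MCL1, BAX, BAK1, BIK, BID, BCL2L11 and BBC3 were followed in 2 Hodgkin lymphoma lines after exposure to 5-Aza-dC. Members were chosen by gene symbol, and every probe set that the platform annotation gives to 1 of these genes alone was kept. That gave 29 probe sets of 9 genes, of 54613 tested probe sets and 19775 genes in all. The only BBC3 probe set carries 3 gene symbols, so no BBC3 value is reported. RNA from bulk cultures of L1236 and L428, established cell lines of classical Hodgkin lymphoma, was measured on 12 expression arrays. 5-Aza-dC, also called decitabine, is a cytidine analog that is built into DNA and traps DNA methyltransferases. The 4 groups, of 3 arrays each, were L1236 exposed for 24 h to 5-Aza-dC at 1 µM and then cultured for 72 h without the drug, L1236 with no treatment, L428 after the same exposure, and L428 with no treatment. Each line was 1 cell line, and the labels describe triplicate experiments without saying whether these were separate cultures, so p-values measure only the spread between arrays. In bulk RNA, fewer cells expressing a gene and less RNA per cell cannot be told apart.

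BCL2 proteins decide whether the outer membrane of mitochondria stays closed. The pro-survival members BCL2, BCL-XL (BCL2L1), BCL2A1 and MCL1 bind and hold back the effectors BAX and BAK (BAK1), which otherwise form pores and release cytochrome c to start apoptosis. The BH3-only members BIK, BID and BIM (BCL2L11) tip this balance by binding the pro-survival proteins or activating the effectors. In Hodgkin cells, constitutive NF-kappaB and STAT activity is known to drive several pro-survival members.

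Each value is a log2 signal, so a change of 1 is a doubling of signal, and levels are compared only within a probe set. Correlations over all probe sets were 0.982 to 0.997 between arrays of a group, 0.962 to 0.987 between treatments of a line and 0.911 to 0.937 between lines. Treated replicate 1 stood apart from its group in both lines, with deviations from the group mean of SD 0.350 in L1236 and 0.385 in L428, against 0.161 to 0.313 in the other arrays. The source name of untreated L1236 replicate 1 describes treated L428 cells, while its description, which set its group, reads untreated L1236. In 3 genes, chosen after their values were seen, this array lay near the other untreated L1236 arrays and outside the treated L428 range. TRAF1 was 2.04 in it, against 2.04 and 2.22 in the other untreated L1236 arrays and 11.35 to 11.88 in treated L428. PAX5 was 12.07, against 11.62 and 11.66 in the other untreated L1236 arrays and 5.93 to 7.01 in treated L428. BID, a family member, was 8.37, against 8.98 and 8.99 in those untreated L1236 arrays and 5.88 to 6.48 in treated L428. Of the markers of the lines, TNFRSF8 (CD30), which marks Hodgkin cells, had group means of 9.57 to 10.39, and the B-cell gene MS4A1 (CD20) had 2.43 to 2.59 over all arrays, below every array median (3.01 to 3.08). TRAF1, also on the Hodgkin list, had means of 2.07 in treated and 2.10 in untreated L1236, against 11.69 and 11.49 in L428. PAX5, on the B-cell list with MS4A1, had means of 12.61 in treated and 11.78 in untreated L1236, against 6.54 and 5.32 in L428. The other B-cell genes had group means of 3.53 to 5.58 (CD79A, CD79B and CD22) and 2.18 to 5.43 (BLK).

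In L1236, signals of BCL2A1, BCL2, BCL2L1 and BIK rose and a BAX signal fell after 5-Aza-dC. By limma's moderated test with Benjamini-Hochberg adjustment over all probe sets, 5 of the 29 family probe sets rose and 1 fell at an adjusted p under 0.05. The largest of these changes was in BCL2A1, and BCL2 passed on 2 probe sets. When 1 array at a time was left out the count was 1 to 11, and it was highest without treated L1236 replicate 1. Over all 54613 probe sets those fits called 2502 to 8725. Without treated L1236 replicate 3 the family count was 1 of 29, a smaller share than the 2577 called over all probe sets. With all arrays the called share was 20.7% of the family probe sets, against 9.02% of all probe sets. By direction, 4.58% of all probe sets rose and 4.44% fell. The median change was 0.68 over the family and -0.03 over all probe sets, and 23 family probe sets had a positive change. All 3 treated arrays lay above all 3 untreated arrays in 11 family probe sets, where 10.3% of all probe sets did so. They lay below in 3 family probe sets, where 48% of all probe sets did so. By role, 4 of 15 pro-survival probe sets rose, 1 of 3 effector probe sets fell and 1 of 11 BH3-only probe sets rose. Over all probe sets the calls in L1236 were 50.8% upward, but 24.6% upward after centring each array on its median. After that centring 7 of the 29 family probe sets passed, where 13111 of all 54613 did, so the family was near the background.

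In L428, the called members were the BH3-only genes BIK and BID, the effector BAK1 and 1 MCL1 probe set, all higher after 5-Aza-dC. When 1 array at a time was left out the count was 1 to 11, and it was highest without treated L428 replicate 1. Over all 54613 probe sets those fits called 717 to 6091. The 4 probe sets were 13.8% of the family, against 3.02% of all probe sets. Of all probe sets, 1.82% rose and 1.2% fell. The median change was 0.76 over the family and -0.02 over all probe sets, with 23 of 29 changes positive. Treated and untreated L428 arrays did not overlap, with treatment higher, in 14 family probe sets, and with treatment lower in 1. Those directions were seen in 6.41% and 9.81% of all probe sets. By role, 1 of 15 pro-survival, 1 of 3 effector and 2 of 11 BH3-only probe sets rose.

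**Figure D1:**
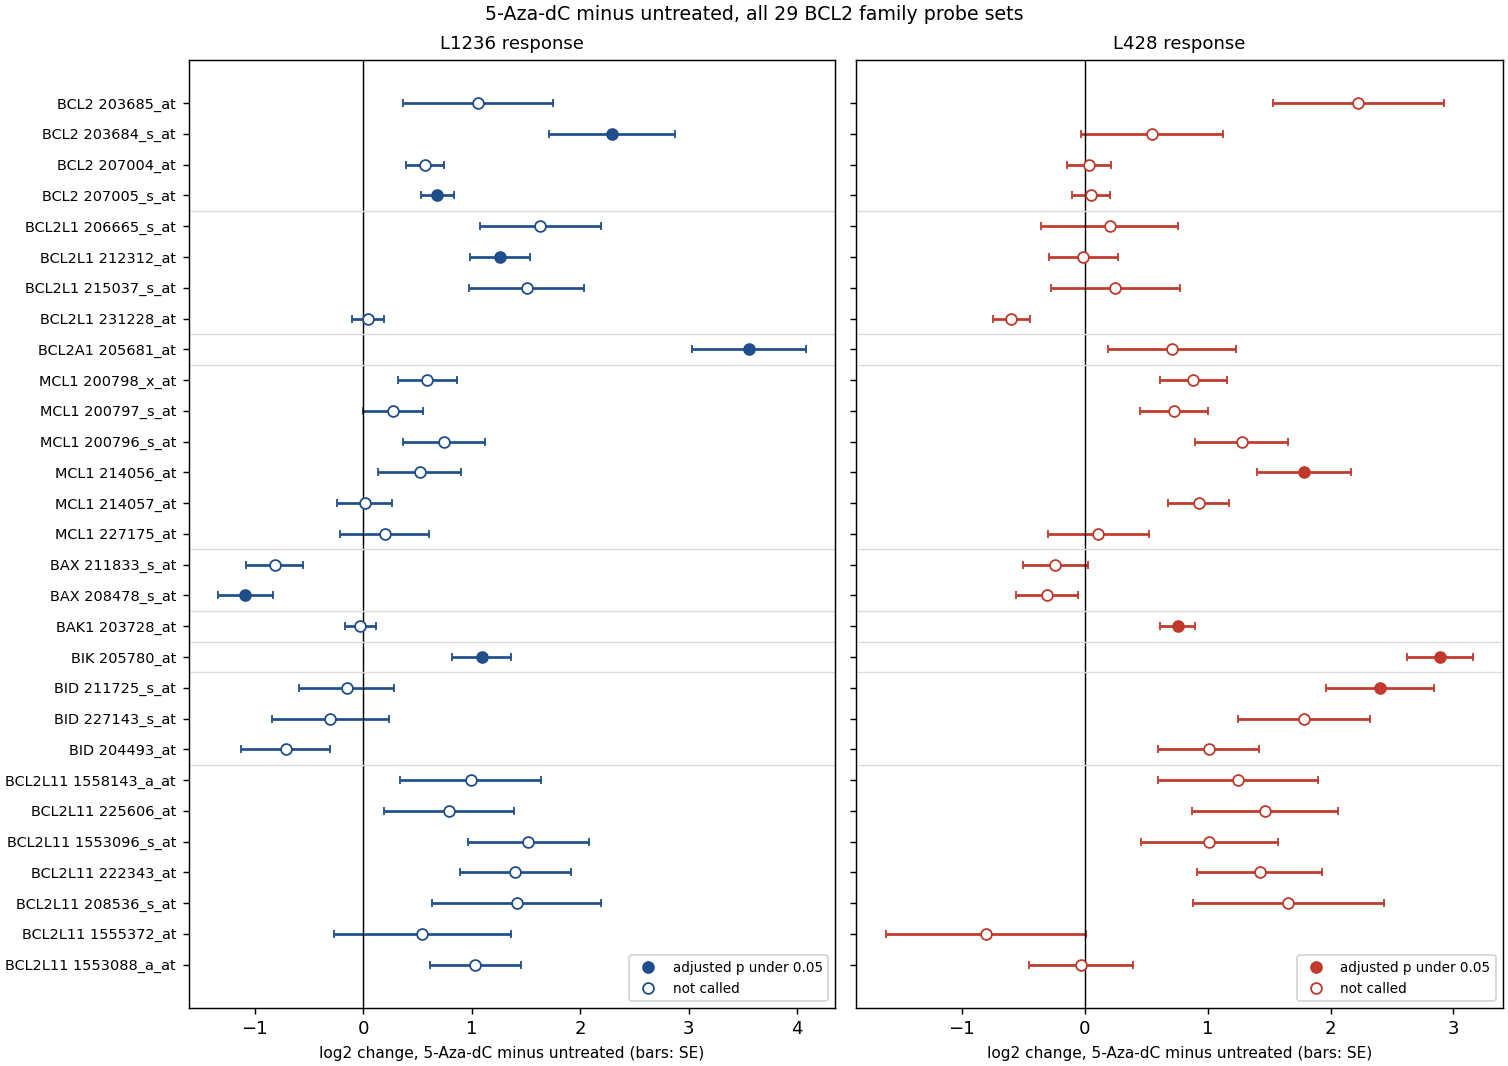
Log2 change of signal after 5-Aza-dC over untreated (x axis, mean of 3 against 3 arrays, bars show the SE from limma) for the 29 family probe sets (y axis, grouped by role), with L1236 on the left and L428 on the right; filled points have an adjusted p under 0.05. BCL2A1 lies farthest to the right in L1236 at 3.55, and BIK in L428 at 2.89.

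Treated replicate 1 carried the smallest shift in both lines. The median over the 29 probe sets, relative to the untreated mean, was 0.26, 0.90 and 0.99 in treated L1236 replicates 1, 2 and 3. In L428 it was 0.29, 0.86 and 0.90. The same arrays were low in 8 interferon-stimulated genes, whose mean level was 7.97, 9.84 and 9.78 in treated L1236 against 7.61, 7.31 and 7.43 in untreated L1236. In L428 the list had 11.86, 13.43 and 13.28 after treatment, against 7.61, 7.38 and 7.18 without it. Limma called 1 of the 8 in L1236, where all 8 had an unadjusted p under 0.05 and all 8 were called without the arrays numbered 1, and it called all 8 in L428. The part of this array difference in the family's values was not tested. Leaving out the 4 arrays numbered 1, which include the treated arrays with the smallest shift, left 2 arrays per group. Those arrays stand out in the family's own values, so calls without them, here and for single genes below, are not independent support. In that setting 16 family probe sets rose and 2 fell in L1236, where 10.7% of all probe sets rose and 12.5% fell. In L428, 16 rose and 3 fell, where 8.46% and 9.77% of all probe sets did so. The 6 and 4 probe sets called with all arrays were among them.

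**Figure D2:**
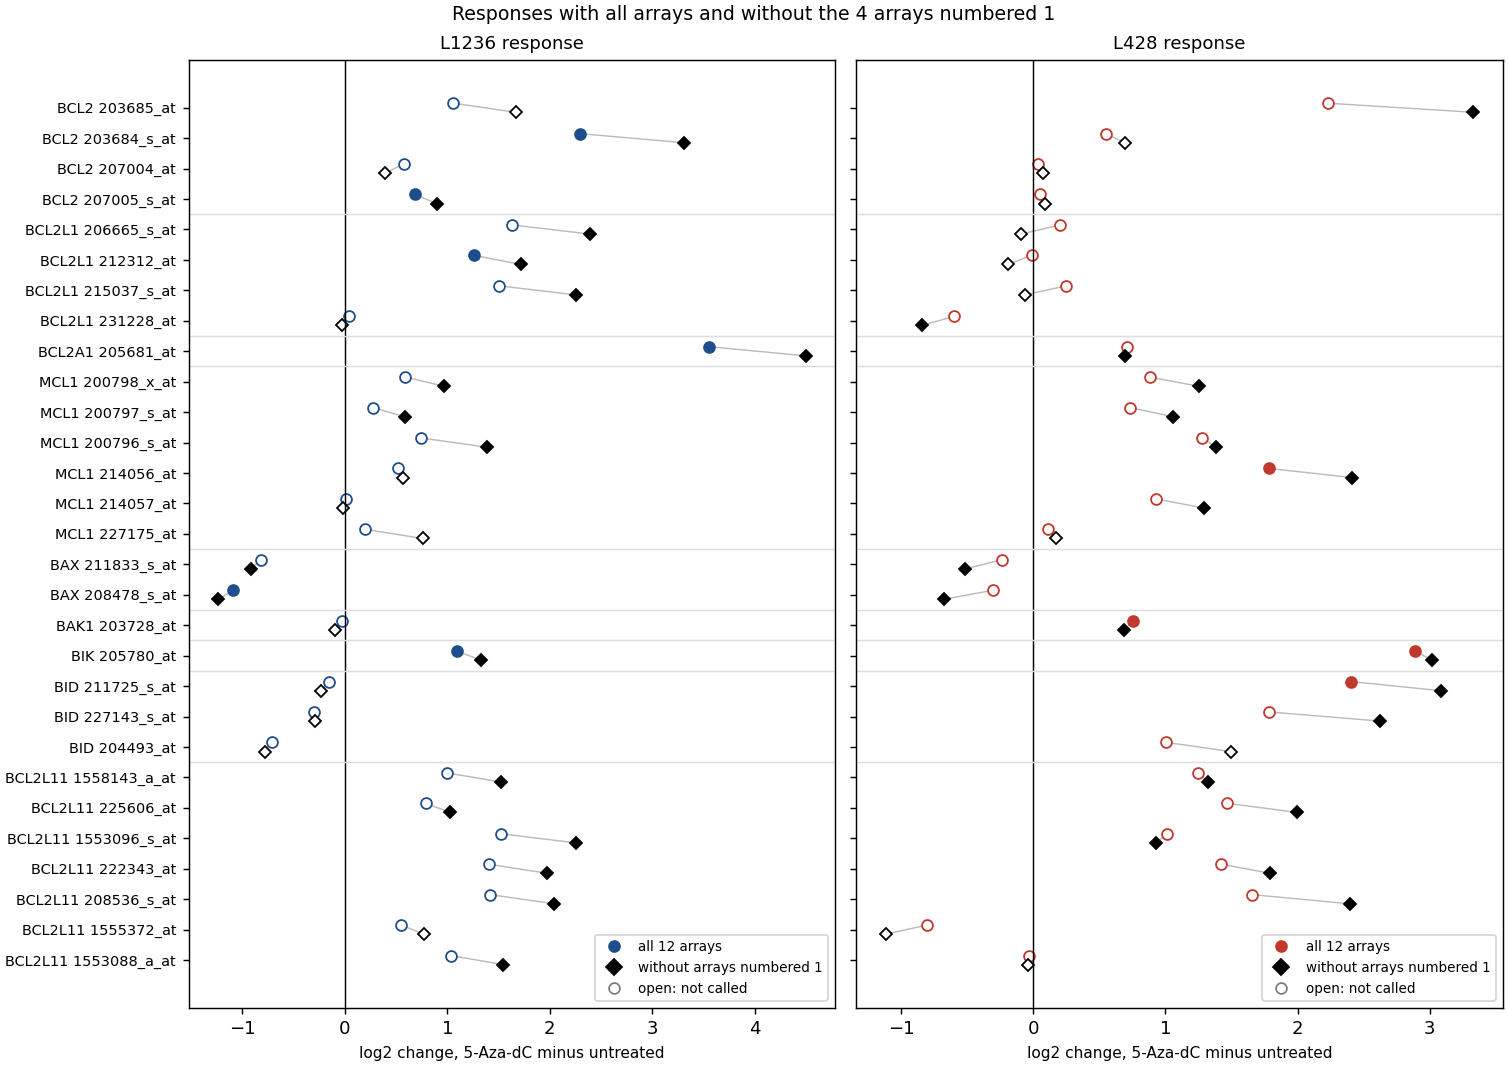
Log2 change after 5-Aza-dC for each family probe set with all 12 arrays and without the 4 arrays numbered 1, with L1236 on the left and L428 on the right; filled points have an adjusted p under 0.05. The filled points number 6 and 18 in L1236 and 4 and 19 in L428.

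Other array facts moved with the groups and touch the counts above. In L1236, the mean of 5 T-cell markers was 3.61 to 3.81 in treated arrays against 2.50 to 2.67 in untreated arrays, through CD8A (change 3.36, adjusted p = 6.70e-06, limma) and CD3D (2.43, adjusted p = 0.00953, limma), which were 2 called of 5. The 5 stromal markers averaged 4.16 to 4.55 in treated and 3.72 to 3.86 in untreated L1236, with COL1A1 called at a change of 2.86 (adjusted p = 0.00100, limma). In L428 no T-cell marker was called by limma, and none had an unadjusted p under 0.05. The 10 Hodgkin cell markers averaged 10.52 to 11.42 in treated and 9.36 to 9.60 in untreated L1236, and 4 of 10 rose. These were the chemokines CCL22 (6.45, adjusted p = 0.00254, limma) and CCL17 (3.01, adjusted p = 4.75e-05, limma), JUNB (2.16, adjusted p = 0.00994, limma) and CD40 (1.35, adjusted p = 0.0299, limma). In L428 they averaged 11.10 to 11.34 in treated and 10.42 to 10.90 in untreated arrays, with 0 called by limma and 4 at an unadjusted p under 0.05. The 6 B-cell markers averaged 5.21 to 5.37 in treated and 4.85 to 5.02 in untreated L1236, with 0 called by limma and 3 at an unadjusted p under 0.05. The myeloid markers averaged 2.34 to 2.40 in treated and 2.38 to 2.40 in untreated L1236. Of all leading probe sets, 1 per gene with the highest mean, limma called 12.4% in L1236, 7.41% as rises, and 3.85% in L428. The part of these marker genes in the family's values was not tested.

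The promoters of 3 genes with a called response on their leading probe set, the one with the highest mean over the 12 arrays, are shown because they differ in CG content, the dinucleotide that DNA methyltransferases modify. The 300 bases run from 250 before to 50 after the annotated start, from RefSeq on GRCh38.p14, 5′ to 3′ on the gene's strand, with each CG in capitals. BCL2A1 lies on the minus strand at chr15:79971147-79971446, BAK1 on the minus strand at chr6:33580227-33580526, and the first of 5 listed BID starts on the minus strand at chr22:17774420-17774719.
BCL2A1: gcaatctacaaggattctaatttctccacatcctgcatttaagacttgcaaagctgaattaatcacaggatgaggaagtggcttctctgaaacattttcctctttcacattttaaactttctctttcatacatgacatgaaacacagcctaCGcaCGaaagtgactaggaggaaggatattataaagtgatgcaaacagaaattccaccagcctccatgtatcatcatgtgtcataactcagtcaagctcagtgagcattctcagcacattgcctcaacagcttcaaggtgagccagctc
BAK1: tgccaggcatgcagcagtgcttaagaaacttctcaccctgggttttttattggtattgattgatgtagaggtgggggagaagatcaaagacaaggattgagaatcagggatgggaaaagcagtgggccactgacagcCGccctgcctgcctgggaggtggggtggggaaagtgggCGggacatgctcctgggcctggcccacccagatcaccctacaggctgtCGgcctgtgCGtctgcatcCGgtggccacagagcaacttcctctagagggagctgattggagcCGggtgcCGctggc
BID: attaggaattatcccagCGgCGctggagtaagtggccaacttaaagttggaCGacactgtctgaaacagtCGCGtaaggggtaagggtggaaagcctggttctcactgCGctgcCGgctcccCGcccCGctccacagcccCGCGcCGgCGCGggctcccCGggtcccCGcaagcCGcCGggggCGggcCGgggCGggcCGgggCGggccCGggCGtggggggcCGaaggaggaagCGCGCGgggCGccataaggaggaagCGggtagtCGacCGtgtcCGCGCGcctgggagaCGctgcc
The windows hold 2 CG in BCL2A1, 7 in BAK1 and 37 in BID. Over 35116 promoter windows the median was 14 CG, with quartiles of 4 and 28, and 96.0% held at least 1. Fewer CG were found in 11.0% of windows than in BCL2A1, in 36.8% than in BAK1 and in 88.7% than in BID. The other BID starts hold 6 to 33 CG. Of the remaining members with an entry, BCL2 has 31, BCL2L1 16 and 20 at its 2 starts, BAX 38 and BCL2L11 39. BBC3, for which no signal is reported, has 5. Of the 9 genes with a reported signal, 7 matched an entry. The motif GGGCGG, searched on both strands and itself holding a CG, occurs 4 times in the BID window shown, 2 times in BAK1 and 0 times in BCL2A1, and 45.0% of promoters hold it. The core of the interferon-stimulated response element, a GAAA repeated after any 2 bases and searched on both strands, occurs 1 time in BCL2A1 and 0 times in the other windows of members with a probe set, and 3.57% of promoters hold it. The BBC3 window holds this core 2 times. A motif of NF-kappaB occurs 0 times in the windows of all members with an entry, BCL2A1 included, and 9.08% of promoters hold it. These are matches of letters, and DNA methylation was not measured here.

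BCL2A1, a pro-survival protein whose gene is a known NF-kappaB target, had the largest response of the family in L1236. Its signal was 11.12, 13.12 and 13.24 in treated L1236 replicates 1, 2 and 3, against 9.45, 8.63 and 8.73 in the untreated arrays. Every treated array lay above every untreated array, and treated replicate 1 was the lowest of the 3. The change was 3.55 ± 0.52 (SE), an 11.7-fold rise (limma, adjusted p = 0.00407, n = 3 arrays each). The call held in each of 12 fits that left out 1 array, and it was 3.81 (adjusted p = 0.00851, limma) without the array with conflicting labels. In L428 the signal was already high, at 13.20, 13.68 and 13.72 in treated arrays against 12.45, 13.10 and 12.93 in untreated arrays. The treated arrays were all higher than the untreated ones by a narrow margin, and the change of 0.71 ± 0.52 was not called (adjusted p = 0.550). It was called without the arrays numbered 1, at 0.69 (adjusted p = 0.00452, limma). The treated L1236 mean was 12.49 ± 1.19 (SD), and the untreated L428 mean was 12.83 ± 0.33, a gap within the SD.

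**Figure D3:**
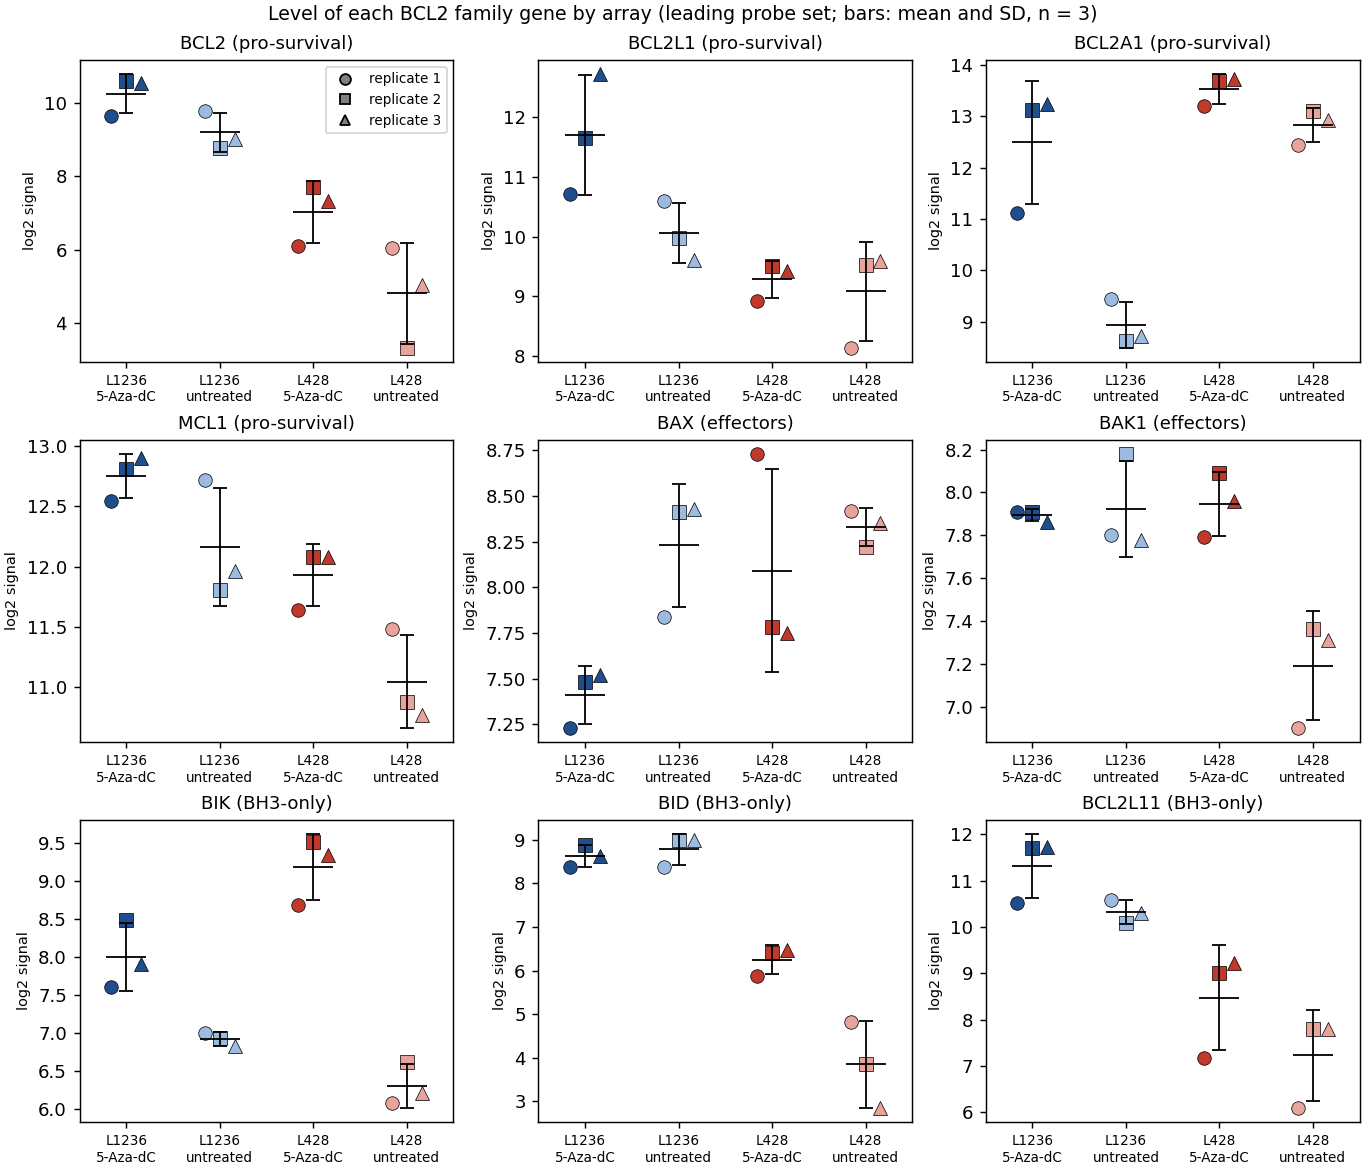
Log2 signal (y axis) of the leading probe set of each of the 9 genes in every array, with groups from left to right L1236 5-Aza-dC, L1236 untreated, L428 5-Aza-dC and L428 untreated; points are arrays, and bars give the mean and SD of 3. BIK separates treated from untreated arrays in both lines, BCL2A1 is lowest in untreated L1236, and BID is lowest in untreated L428.

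BCL2, the founding pro-survival member, is covered by 4 probe sets, and those that passed in L1236 were not the leading one. Probe set 203684_s_at had 6.99, 9.23 and 9.40 in treated L1236, against 6.74, 6.08 and 5.93 in untreated L1236. The groups did not overlap, although treated replicate 1 was only just above the highest untreated array. The change was 2.29 ± 0.58 (adjusted p = 0.0416, limma). This call was lost in 10 of the 12 fits that left out 1 array, with adjusted p of 0.0549 to 0.156, and was kept only without treated replicate 1 of either line. Probe set 207005_s_at, annotated to the beta transcript, had 3.28, 3.87 and 3.99 in treated L1236 against 3.02, 3.03 and 3.03 in untreated L1236. These untreated values lie at about the array medians of 3.01 to 3.08, and the change was 0.68 ± 0.16 (adjusted p = 0.0287, limma). It lost its call without each of 5 L1236 arrays, untreated replicates 1 (adjusted p 0.0724), 2 (0.0850) and 3 (0.0903) and treated replicates 2 (0.114) and 3 (0.0949).

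The leading BCL2 probe set, 203685_at, was not called in either line. It had 9.63, 10.59 and 10.53 in treated L1236, against 9.79, 8.77 and 9.02 in untreated L1236, so treated replicate 1 fell within the untreated range. L428 arrays gave 7.33 to 7.70 in treated replicates 2 and 3 and 6.09 in treated replicate 1, against 6.06, 3.33 and 5.04 in untreated arrays. Treated L428 arrays were all higher, replicate 1 by the narrowest margin, and the spread of untreated L428 was wide. The changes were 1.06 ± 0.70 in L1236 (adjusted p = 0.335) and 2.23 ± 0.70 in L428 (adjusted p = 0.148). Without the arrays numbered 1 the L428 change was 3.33 (adjusted p = 0.0163, limma). None of the 4 BCL2 probe sets was called by limma in L428, where 1 had an unadjusted p under 0.05 and the changes spanned 0.04 to 2.23.

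BCL2L1, which encodes the pro-survival protein BCL-XL and a shorter pro-apoptotic splice form, rose in L1236 on 1 of its 4 probe sets. Probe set 212312_at had 10.49, 11.38 and 11.59 in treated L1236, against 10.15, 9.92 and 9.60 in untreated L1236. In L428 it had 9.51, 9.51 and 9.53 after treatment, against 9.16, 9.71 and 9.71 without it. The L1236 groups stood apart, and the L428 treated arrays lay inside the untreated range. The L1236 change was 1.26 ± 0.28 (adjusted p = 0.0258, limma), and the L428 change was -0.01 ± 0.28 (adjusted p = 0.988). The L1236 call was lost without untreated L1236 replicate 2 (adjusted p 0.0754) or 3 (0.0985) and without treated replicate 2 (0.103) or 3 (0.0938). The leading probe set, 206665_s_at, had 10.71, 11.64 and 12.72 in treated L1236 against 10.59, 9.98 and 9.61 in untreated L1236, a change of 1.63 ± 0.55 that was not called (adjusted p = 0.113). Probe set 215037_s_at gave a similar 1.51 (adjusted p = 0.123). With the arrays numbered 1 left out, the leading probe set passed at 2.39 (adjusted p = 0.00915, limma). In L428 the signal was 8.93, 9.51 and 9.42 in treated and 8.14, 9.52 and 9.60 in untreated arrays, which overlap, with a change of 0.20 ± 0.55 (adjusted p = 0.844). Probe set 231228_at, with values of 4.37 to 5.47 over all arrays, was not called for either response with all arrays. It had 5.16, 4.56 and 4.58 in treated L428, against 5.27, 5.47 and 5.35 in untreated L428. Every treated L428 array was below every untreated one, by a narrow margin for replicate 1, and the change was -0.60 ± 0.15 (adjusted p = 0.0775, limma). Without the arrays numbered 1 it was called lower, at -0.84 (adjusted p = 0.00323, limma), while the L1236 change with all arrays was 0.04 (adjusted p = 0.860).

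MCL1, a short-lived pro-survival protein, had positive changes on all 6 of its probe sets in both lines. By limma 1 passed in L428 and 0 in L1236, where none had an unadjusted p under 0.05. Probe set 214056_at had 7.59, 8.34 and 8.65 in treated L428, against 7.07, 6.38 and 5.78 in untreated L428. The groups did not overlap, and the change was 1.78 ± 0.38 (adjusted p = 0.0441, limma). With the replicate number as a block, a pairing seen in L428 for replicate 1 only, the adjusted p was 0.0641 (limma). The call was also lost in 10 of 12 fits that left out 1 array, with adjusted p of 0.0548 to 0.175, and kept without untreated or treated L428 replicate 1. The same probe set had 9.55, 9.27 and 8.93 in treated L1236 and 9.13, 8.69 and 8.38 in untreated L1236, which overlap. The leading probe set, 200798_x_at, had 12.54, 12.81 and 12.90 in treated L1236 against 12.72, 11.81 and 11.96 in untreated L1236. L428 had 11.64, 12.08 and 12.08 after treatment, against 11.48, 10.88 and 10.77 without it. Treated L428 arrays were all higher, whereas untreated L1236 replicate 1 lay above 1 treated L1236 array. Its changes were 0.59 ± 0.27 in L1236 (adjusted p = 0.219) and 0.89 ± 0.27 in L428 (adjusted p = 0.140). Without the arrays numbered 1 they were 0.97 (adjusted p = 7.31e-04, limma) and 1.25 (adjusted p = 5.41e-04, limma). Probe set 227175_at had values of 1.93 to 3.47, around and below the array medians.

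Of the pore-forming effectors, BAX fell in L1236 and BAK1 rose in L428. The BAX probe set 208478_s_at had 6.74, 6.88 and 6.55 in treated L1236, against 7.53, 7.93 and 7.98 in untreated L1236. In L428 it had 8.59, 7.57 and 7.69 after treatment, against 8.15, 8.22 and 8.40 without it. The L1236 groups were clearly apart, and in L428 treated replicate 1 was the highest array while replicates 2 and 3 were below every untreated one. The L1236 change was -1.09 ± 0.25 (adjusted p = 0.0303, limma), and the L428 change was -0.31 ± 0.25 (adjusted p = 0.559). The L1236 call was lost without untreated L428 replicate 2 (adjusted p 0.0519), untreated L1236 replicate 2 (0.102) or 3 (0.109), or treated L1236 replicate 2 (0.0742) or 3 (0.115). The leading BAX probe set, 211833_s_at, had 7.23, 7.48 and 7.52 in treated L1236 against 7.84, 8.41 and 8.43 in untreated L1236. It too was lower in every treated L1236 array, as 48% of all probe sets were. This probe set did not pass the test, at -0.82 ± 0.26 (adjusted p = 0.0965, limma). With the arrays numbered 1 left out, it was called in both lines, at -0.92 in L1236 (adjusted p = 3.50e-04, limma) and -0.52 in L428 (adjusted p = 0.00297, limma).

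BAK1, whose protein BAK sits on the mitochondrial outer membrane, had 7.79, 8.09 and 7.96 in treated L428 against 6.90, 7.36 and 7.31 in untreated L428. In L1236 it had 7.91, 7.91 and 7.86 after treatment, against 7.80, 8.18 and 7.78 without it. Treated L428 arrays reached the level that L1236 had with or without treatment, and the L1236 groups overlapped. The change was 0.76 ± 0.15 in L428, a 1.69-fold rise (adjusted p = 0.0295, limma), and -0.03 ± 0.15 in L1236 (adjusted p = 0.910). The L428 call was lost without untreated L428 replicate 3 (adjusted p 0.0573), treated L428 replicate 2 (0.118) or 3 (0.114), or treated L1236 replicate 2 (0.0569) or 3 (0.0522).

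BIK, a BH3-only protein of the endoplasmic reticulum, was the single member called in both lines. It had 7.61, 8.49 and 7.91 in treated L1236, against 7.0, 6.93 and 6.82 in untreated L1236. In L428 values were 8.69, 9.52 and 9.35 after treatment, against 6.07, 6.62 and 6.21 without it. Treated and untreated arrays did not overlap in either line, and the gap was wider in L428. The change was 1.09 ± 0.27 in L1236, a 2.13-fold rise (adjusted p = 0.0397, limma), and 2.89 ± 0.27 in L428, a 7.41-fold rise (adjusted p = 9.19e-04, limma). The L428 call held in each of the 12 fits that left out 1 array. The L1236 call was lost in 7 of them, with adjusted p of 0.0592 to 0.131: without replicate 3 of untreated (0.0622) or treated L428 (0.0592), any untreated L1236 array (0.0810, 0.109 and 0.127), or treated L1236 replicate 2 (0.131) or 3 (0.104).

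BID, which is cleaved by caspase-8 to link death receptors to mitochondria, rose in L428 on its leading probe set. Probe set 211725_s_at had 5.88, 6.40 and 6.48 in treated L428, against 4.83, 3.86 and 2.85 in untreated L428. In L1236 it had 8.38, 8.87 and 8.63 after treatment, against 8.37, 8.98 and 8.99 without it. The L428 groups were apart while the untreated L428 arrays spread widely, and the L1236 groups overlapped at a higher level. The L428 change was 2.40 ± 0.44, a 5.29-fold rise (adjusted p = 0.0240, limma), and the L1236 change was -0.15 ± 0.44 (adjusted p = 0.828). The L428 call was lost without untreated L428 replicate 2 (adjusted p 0.0736) or treated L428 replicate 2 (0.0959) or 3 (0.104). The other BID probe sets had positive changes in L428 without passing, of 1.79 (adjusted p = 0.133) and 1.01 (adjusted p = 0.266), with untreated values of 2.10 to 2.87, below every array median. In L1236 the 3 probe sets had changes of -0.72 to -0.15.

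BCL2L11, the gene of the potent BH3-only protein BIM, was not called by limma on any of its 7 probe sets in either line with all arrays. The leading probe set, 1558143_a_at, had 10.51, 11.71 and 11.73 in treated L1236 against 10.58, 10.08 and 10.30 in untreated L1236. For L428 the values were 7.17, 9.01 and 9.23 after treatment, against 6.09, 7.79 and 7.80 without it. In both lines treated replicates 2 and 3 were above every untreated array, and treated replicate 1 lay within the untreated range. The changes were 0.99 ± 0.65 (adjusted p = 0.334) and 1.24 ± 0.65 (adjusted p = 0.412). Without the arrays numbered 1 they were 1.52 in L1236 (adjusted p = 6.48e-04, limma) and 1.33 in L428 (adjusted p = 0.00146, limma). All 7 probe sets had a positive change in L1236, of 0.55 to 1.52, and 5 of 7 in L428, over a range of -0.81 to 1.66. At an unadjusted p under 0.05 there were 3 of the 7 in L1236 and 2 in L428. The share of all probe sets at that p is not given, so these counts show no excess.

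The responses of the lines were then compared directly, as the L1236 change minus the L428 change in 1 model. BIK alone differed, with a smaller rise in L1236 and a difference of -1.80 ± 0.38 on the log2 scale (adjusted p = 0.0480, limma). This 1 probe set was 3.45% of the family, against 2.57% of all probe sets (1.42% higher, 1.15% lower in L1236), which is near the background. The difference was lost in 9 of 12 fits that left out 1 array, with adjusted p of 0.062 to 0.123, and kept only without treated replicate 1 of L428 or treated replicate 1 or 2 of L1236. BCL2A1 (2.84 ± 0.74, adjusted p = 0.100), BID (-2.56 ± 0.62, adjusted p = 0.0779) and BAK1 (-0.78 ± 0.21, adjusted p = 0.101) did not pass with all arrays. With the arrays numbered 1 left out, BCL2A1 differed by 3.80 (adjusted p = 1.34e-04, limma), BID by -3.32 (adjusted p = 0.0126, limma) and BIK by -1.69 (adjusted p = 0.0337, limma). That setting called 13 family probe sets, 7 higher and 6 lower in L1236, against 14.3% of all probe sets, of which 6.95% were higher and 7.36% lower. With all arrays no pro-survival or effector probe set was called by limma, and 6 of 15 and 1 of 3 had an unadjusted p under 0.05. A call in 1 line only, such as BAX, BID or BAK1, was therefore not shown to differ between the lines.

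Without treatment, BID, BCL2, BCL2L11, MCL1 and BAK1 were higher in L1236 than in L428, and BCL2A1 was lower. Untreated L1236 was higher than untreated L428 in 14 family probe sets and lower in 2, which is 55.2% called against 21.1% of all probe sets. Of all probe sets, 11.2% were higher and 9.89% lower in untreated L1236. The median difference was 1.11 over the family and -0.02 over all probe sets. The untreated arrays of the lines did not overlap in 22 family probe sets, 19 with L1236 higher and 3 with L1236 lower, against 16.2% and 18% of all probe sets. By role, 7 of 11 BH3-only, 8 of 15 pro-survival and 1 of 3 effector probe sets were called.

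**Figure D4:**
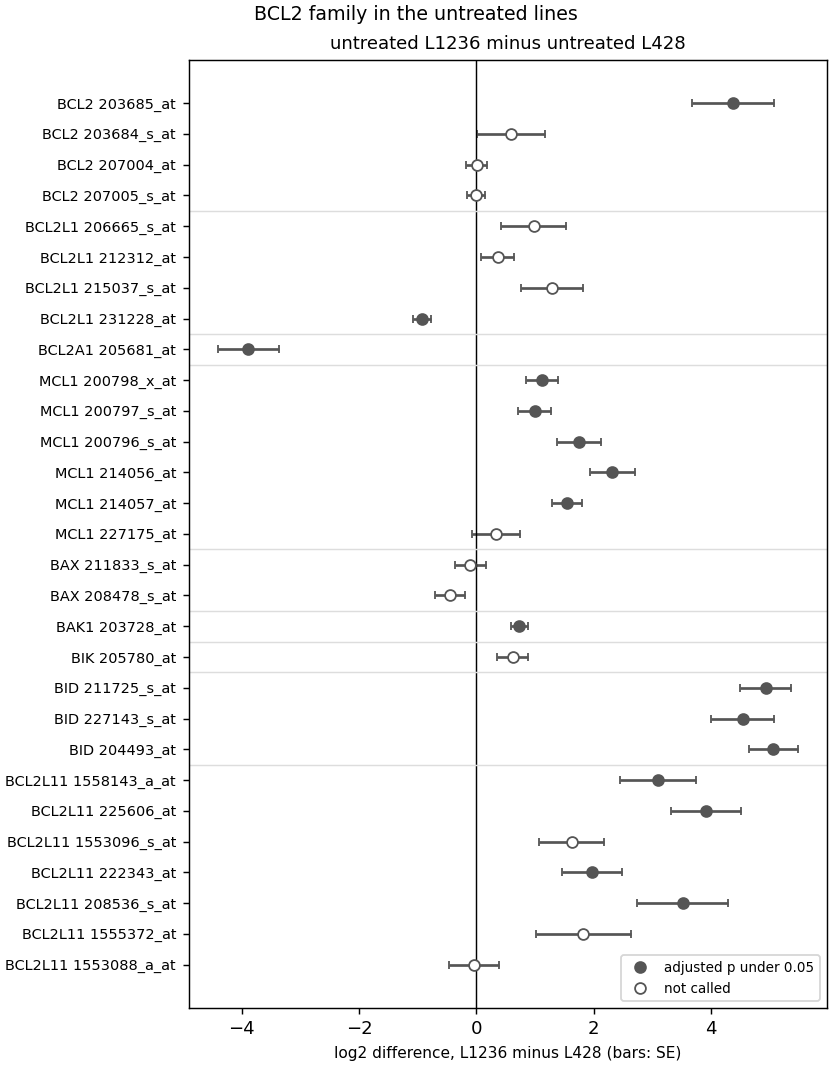
Log2 signal of untreated L1236 minus untreated L428 (x axis, mean of 3 against 3 arrays, bars show the SE from limma) for the 29 family probe sets (y axis, grouped by role); filled points have an adjusted p under 0.05. The 3 BID probe sets lie at 4.54 to 5.07, and BCL2A1 lies at -3.89.

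BID showed the largest difference between the untreated lines, with 8.78 ± 0.35 (SD) in L1236 and 3.85 ± 0.99 in L428. This is 4.93 ± 0.44, or 30.5-fold (adjusted p = 4.73e-05, limma), and all 3 BID probe sets were called at 4.54 to 5.07. The lowest L428 value, 2.85, was below every array median. The leading BCL2 probe set averaged 9.19 ± 0.53 in L1236 and 4.81 ± 1.38 in L428, a difference of 4.38 ± 0.70 (adjusted p = 0.00167, limma). None of the other 3 BCL2 probe sets was called by limma between the untreated lines or had an unadjusted p under 0.05. BCL2L11 was higher in L1236 on 4 of 7 probe sets, by 3.10 ± 0.65 on the leading one (adjusted p = 0.00790, limma). That probe set averaged 10.32 ± 0.25 in L1236 and 7.23 ± 0.98 in L428. MCL1 was higher on 5 of 6 probe sets, by 0.99 to 2.32, and BAK1 by 0.73 ± 0.15 (adjusted p = 0.00582, limma). The leading MCL1 call, 1.11 ± 0.27 (adjusted p = 0.0167, limma), was lost without untreated L428 replicate 2 (adjusted p 0.0632) or 3 (0.0636). BCL2A1 was lower in L1236, at 8.94 ± 0.45 against 12.83 ± 0.33 in L428, a difference of -3.89 ± 0.52 (adjusted p = 6.32e-04, limma). BCL2L1 probe set 231228_at was lower by 0.93 ± 0.15 (adjusted p = 0.00183, limma), while the leading BCL2L1 probe set was at 0.98 (adjusted p = 0.321). BAX (-0.10, adjusted p = 0.838) and BIK (0.62, adjusted p = 0.171) did not pass. Without the array with conflicting labels, BID was at 5.13 (adjusted p = 2.16e-04, limma), BCL2 at 4.08 (0.00837), BCL2L11 at 2.97 (0.031) and BCL2A1 at -4.14 (0.00172). MCL1 200797_s_at (adjusted p 0.112) and BCL2L11 222343_at (0.0785) lost their calls there, as they did in 6 and 5 of the 12 fits that left out 1 array.

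Of 47 listed genes around the family, 43 had a probe set of their own. On the leading probe sets, 8 rose and 1 fell in L1236, where 12.4% of all leading probe sets were called (7.41% rose and 4.99% fell). In L428 limma called 0 of the 43, and 12 had an unadjusted p under 0.05, while 3.85% of all leading probe sets were called. Without the arrays numbered 1, 13 rose and 9 fell in L1236, where 10.7% of all probe sets rose and 12.5% fell. In L428, 7 rose and 11 fell in that setting, where 8.46% and 9.77% of all probe sets did so. The shares for that setting cover all probe sets, not the leading ones alone. Among 13 other family members, BCL2L10, a pro-survival relative, and PMAIP1, which encodes the BH3-only protein NOXA that binds MCL1, rose in L1236. BCL2L10 averaged 5.28 ± 0.32 in treated and 2.87 ± 0.10 in untreated L1236, against 10.00 ± 0.45 and 10.57 ± 0.24 in L428. The untreated L1236 mean was below every array median, which limits what a fold there can show. BCL2L10 rose by 2.41 ± 0.24 in L1236 (adjusted p = 5.15e-04, limma) and had a change of -0.57 in L428 (adjusted p = 0.274). Of the 43, 2 differed between the lines in their response, where 3.59% of all leading probe sets did, which is near the background. Both were higher in L1236. One was BCL2L10, by 2.98 ± 0.33 (adjusted p = 0.00280, limma). PMAIP1 rose by 0.74 ± 0.18 in L1236 (adjusted p = 0.0369, limma) and had a change of 0.63 in L428 (adjusted p = 0.116).

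Of the 8 mitochondrial factors, HTRA2, a protease released from mitochondria, rose in L1236 by 0.81 ± 0.20 (adjusted p = 0.0422, limma). Of 4 measured apoptosome and caspase genes, none passed in L1236 by limma, and 2 had an unadjusted p under 0.05. Of 5 inhibitor of apoptosis genes, BIRC2, which encodes cIAP1, rose by 1.01 ± 0.18 (adjusted p = 0.0111, limma). Of 13 genes of transcription factors and turnover, 4 rose and 1 fell in L1236. The 3 with the largest rise were STAT5A, NFKB1 and STAT3. STAT5A rose by 2.30 ± 0.39 (adjusted p = 0.00754, limma), and STAT3 by 1.24 ± 0.13 (adjusted p = 7.18e-04, limma). NFKB1, the precursor of the p50 subunit, rose by 1.45 ± 0.38 (adjusted p = 0.0466, limma). TP73, a relative of p53, fell by 0.94 ± 0.24 (adjusted p = 0.0440, limma). STAT3 had a change of -0.08 in L428 (adjusted p = 0.732), and its responses were the other that differed, by 1.31 ± 0.18 (adjusted p = 0.00817, limma). The calls of PMAIP1, HTRA2, NFKB1 and TP73 were each lost in several fits that left out 1 array, with adjusted p of up to 0.142, 0.156, 0.171 and 0.141.

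The genes whose profiles over the 12 arrays lay nearest to the most responsive member of each line were found among 19774 others by the root mean square difference of centred log2 values. For BCL2A1, whose SD over the arrays was 1.94, the nearest were PFKFB3 (0.237), PHLDA1 (0.302) and CD83 (0.406). For BIK, with an SD of 1.19, they were SP110 (0.278), ISG15 (0.279) and DDX60 (0.375). ISG15 averaged 13.55 in treated and 12.33 in untreated L1236, and 14.93 in treated and 11.69 in untreated L428.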

How the data were processed

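RNA of 2 cell lines was hybridised to 12 Affymetrix arrays. The authors deposited a log2 signal for each probe set on each array and made these signals by RMA, the robust multichip average, as the design text and the submitters' processing notes state; the version is not given in the sources used here. Probe set names follow a 3′ expression array, although the design text describes a whole-transcript one, and the names as deposited were used. Detection calls were not used, whether the 12 arrays were normalized together is not stated, and 3 arrays per group limit the precision.

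Groups came from the sample descriptions. Of 54675 probe sets, 62 controls were left out, and 54613 were tested. The platform annotation gave 41091 of them 1 symbol, 1801 several and 11721 none, and 41037 matched RefSeq through Entrez identifiers. limma 3.58.1 in R 4.3.3 fitted 4 group means to all arrays, with empirical Bayes moderation, two-sided tests and Benjamini-Hochberg adjustment over all probe sets of each contrast. Probe sets with an adjusted p under 0.05 were called. Counts at an unadjusted p under 0.05 are given without the share over all probe sets, so they show no excess. All single-gene probe sets of the members are named, and of the pathway lists up to 3 genes per list, line and direction that were called on their leading probe set, by size of change. The steps were tested on simulated data. Same-numbered treated and untreated L428 arrays had deviations that correlated at 0.260, 0.154 and 0.167. Treated replicate 2 with untreated replicate 3 gave 0.168, and treated 3 with untreated 2 gave 0.161. Only replicate 1 was therefore set apart as a pair. The replicate number was used as a block in an alternative. The members and lists were chosen with earlier results of these data known. Alternatives covered the block, normalization, filters, moderation, array weights and arrays left out.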

Additional observations from a re-analysis of the deposited data

Results flagged for a closer look

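BIK, BCL2L10 and STAT3 were singled out because their responses to 5-Aza-dC differed between the lines by limma's test of the difference itself. The L1236 change minus the L428 change was -1.80 for BIK (adjusted p = 0.0480, limma), which was higher in 3 of 3 treated arrays than in every untreated array of both lines. It was 2.98 for BCL2L10 (adjusted p = 0.00280, limma) and 1.31 for STAT3 (adjusted p = 0.00817, limma). The BIK difference was lost in 11 of 21 alternatives, among them 9 of the 12 fits that left out 1 array. In those 12 fits BCL2L10 and STAT3 kept their calls, with adjusted p of up to 0.0113 and 0.0283 (limma). BCL2L10 in untreated L1236 was below the array medians.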

How the results depend on the processing

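No called change of a family member turned its direction under the alternatives run. The counts of called family probe sets moved by over 1.5 times under some of them, and the cause was not tested. In L1236 the count was 6 of 29, against 18 with array weights, 1 with only the groups compared and 18 without the arrays numbered 1. Over all 54613 probe sets the calls in the same order numbered 4927, 23942, 3084 and 12713. With only the groups compared, the family share was thus below that of all probe sets. With 1 array left out the family count was 1 to 11. Of these, it was 11 without treated L1236 replicate 1, 2 without treated replicate 2, 1 without treated replicate 3, 3 without untreated replicate 1, and 1 without untreated replicate 2 or 3. In L428 the family count was 4, against 15, 1 and 19 in these settings. Over all probe sets the L428 calls numbered 1647, against 10934, 244 and 9956. With 1 array left out the L428 family count was 1 to 11. Without treated L428 replicate 1 it was 11, without treated L428 replicate 2 or 3 it was 1, and without untreated L428 replicate 2 or 3 or treated L1236 replicate 2 or 3 it was 2. The difference of responses had 1, against 13 with array weights, 13 without the arrays numbered 1, 3 without the dimmer probe sets, and 0 by limma after quantile normalization or cyclic loess, with 0 to 6 when 1 array was left out. It was 6 without treated L1236 replicate 1 and 4 without treated L428 replicate 1. In the settings with 0 calls by limma, 9 to 12 family probe sets had an unadjusted p under 0.05. The untreated lines had 16, with 13 to 17. The check of pairing by replicate number set apart replicate 1 of L428 most clearly, and not its replicates 2 and 3 from each other. With this number as a block, the counts were 5 in L1236, 3 in L428, 1 for the difference and 18 for the untreated lines. In L428 the block ended the MCL1 call and no other. Same-numbered L1236 arrays correlated weakly, at 0.0688, 0.0118 and 0.103, against -0.0882 to 0.0296 for unlike numbers. The block there lost BCL2 203684_s_at (0.0564) and BAX 208478_s_at (0.0550). BCL2A1 in L1236 lost its call only with the groups compared alone (adjusted p 0.0576), and BIK in L428 kept it throughout, at up to 0.0479. Over all probe sets the L1236 calls numbered 13111 after median centring, and the L428 calls 2539 of 27307 without the dimmer probe sets. The difference had 1403, against 8098 with array weights and 7816 without the arrays numbered 1. With 1 array left out these counts were 2502 to 8725 in L1236, 717 to 6091 in L428 and 733 to 3588 for the difference. With 1 probe set per gene, so fewer tested, they were 2955, 920 and 914, and 5699 for the untreated lines against 11508. Signals below the array medians, as in part of the BID values of untreated L428, limit what a fold there can show.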
